A study of Homo sapiens with 6 samples.

Results

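The E2F family comprises the E2F transcription factors and the DP proteins with which most of them pair on DNA. Described here are the 10 genes E2F1 to E2F8, TFDP1 and TFDP2, taken by gene symbol from a table of 33392 genes; all 10 had a row, and all 10 passed the expression filter of a mean of at least 0.5 FPKM, as did 15121 genes in all. The libraries came from HK-2, a human kidney cell line labelled as epithelial, at 48 h, and RNA was sequenced from 3 libraries with an siRNA against DYRK2 (siDYRK2) and 3 with a scramble siRNA. Every library received TGF-β1, a cytokine that drives matrix production and dedifferentiation in tubule cells, so no value here measures the response to the cytokine. DYRK2 is a dual-specificity tyrosine-regulated kinase, and the study links it to CDK1 and the G2/M phase in renal fibrosis. HK-2 was derived from proximal tubule and immortalised with the human papillomavirus E6 and E7 genes, and E7 binds the retinoblastoma protein and releases E2F from it, which limits the line as a model of E2F control in the tubule. That these cells are HK-2 is taken from the labels, and the markers given below do not show a proximal tubule identity.

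E2F factors bind promoters of genes for DNA synthesis and the cell cycle. E2F1, E2F2 and E2F3 are the activators, held inactive by the retinoblastoma protein until cyclin-dependent kinases phosphorylate it in G1. E2F4 and E2F5 act mainly as repressors together with the pocket proteins p107 and p130 in resting and early G1 cells, E2F6 represses through Polycomb proteins without a pocket protein, and E2F7 and E2F8 are atypical members that bind DNA without a DP partner and repress E2F targets later in S phase. Several E2F genes are themselves E2F targets.

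Silencing of DYRK2 went with higher transcript levels of 6 of the 10 genes, E2F1, E2F2, E2F6, E2F7, E2F8 and TFDP1, and with 0 called lower. E2F2 rose 2.16-fold, E2F8 1.73-fold, E2F7 1.55-fold and E2F1 1.54-fold in ratios of mean FPKM, while TFDP1 and E2F6 rose 1.16-fold and 1.14-fold. E2F3, E2F4, E2F5 and TFDP2 were not past the threshold. The test was limma on log2(FPKM + 0.5) over all 15121 genes with Benjamini-Hochberg adjustment at 0.05, a scale that understates the change of low genes. Of all genes tested 20.4% were called higher, 17.9% lower and 38.3% in either direction, so a call on its own is common in this comparison. At an unadjusted limma p under 0.05, 7 members were higher and 0 lower. The library values of 7 members did not overlap between the groups, as was the case for 51.7% of all genes tested.

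The promoters of the members are shown first, because several E2F genes are reported to be controlled by E2F sites in their own promoters. The RefSeq table of promoter windows, which run from 250 bases before to 50 bases after a transcription start on GRCh38.p14, held 11 windows for 8 of the 10 members, all but E2F5 and E2F8. The windows were searched on both strands for the E2F words TTTCCCGC, TTTCGCGC, TTTGCCGC and TTTGGCGC. The sequences of 3 members that rose and have a window, E2F1, E2F2 and E2F7, are given with that of the first E2F3 window, whose gene was not called. Capitals mark the words, in either orientation, and every sequence runs 5′ to 3′ on the strand of its gene.
E2F1, chr20:33686336-33686635, minus strand: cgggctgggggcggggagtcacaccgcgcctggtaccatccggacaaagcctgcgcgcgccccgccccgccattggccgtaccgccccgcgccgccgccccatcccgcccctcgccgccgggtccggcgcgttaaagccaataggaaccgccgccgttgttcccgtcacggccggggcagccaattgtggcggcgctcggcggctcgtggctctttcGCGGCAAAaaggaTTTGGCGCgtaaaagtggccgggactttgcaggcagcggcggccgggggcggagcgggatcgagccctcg
E2F2, chr1:23531184-23531483, minus strand: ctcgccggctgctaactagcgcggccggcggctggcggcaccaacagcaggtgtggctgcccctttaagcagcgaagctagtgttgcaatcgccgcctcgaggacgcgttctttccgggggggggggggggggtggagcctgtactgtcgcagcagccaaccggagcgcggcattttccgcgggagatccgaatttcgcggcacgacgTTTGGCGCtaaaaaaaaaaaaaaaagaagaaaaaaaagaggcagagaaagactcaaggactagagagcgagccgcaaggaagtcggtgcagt
E2F3, chr6:20401629-20401928, plus strand: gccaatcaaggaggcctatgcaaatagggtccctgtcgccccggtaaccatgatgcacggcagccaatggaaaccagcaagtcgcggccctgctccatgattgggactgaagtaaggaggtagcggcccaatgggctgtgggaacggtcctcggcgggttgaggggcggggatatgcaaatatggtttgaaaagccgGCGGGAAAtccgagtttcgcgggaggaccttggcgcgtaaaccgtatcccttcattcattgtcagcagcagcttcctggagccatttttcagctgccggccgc
E2F7, chr12:77065520-77065819, minus strand: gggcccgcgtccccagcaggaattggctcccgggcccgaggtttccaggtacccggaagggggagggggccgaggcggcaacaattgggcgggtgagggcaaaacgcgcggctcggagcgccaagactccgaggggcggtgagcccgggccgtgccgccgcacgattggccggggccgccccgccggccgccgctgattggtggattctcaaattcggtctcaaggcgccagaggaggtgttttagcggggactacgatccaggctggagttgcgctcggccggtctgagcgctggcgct

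E2F1 held 2 words, TTTGGCGC starting 20 bases before the transcription start and GCGGCAAA, the reverse complement of a word, starting 33 bases before it. E2F2 held 1, TTTGGCGC starting 42 bases before its start. The first E2F3 window held 1 reversed word, GCGGGAAA, starting 53 bases before the start, and TFDP1 held 1, GCGCGAAA, starting 120 bases before it. No word was found in the windows of E2F4, E2F6, E2F7 and TFDP2 or in the second E2F3 window, which says only that these letters are absent there. In all, 4 of the 8 members with a window held a word, against 6.84% of the 10395 tested genes with a window, both counted by gene. Of all 35116 windows, counted singly and with those of genes not tested, 3.31% held one. Words and calls did not coincide in every member: E2F7 and E2F6 rose without one, and E2F3 held one and was not called.

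**Figure D1:**
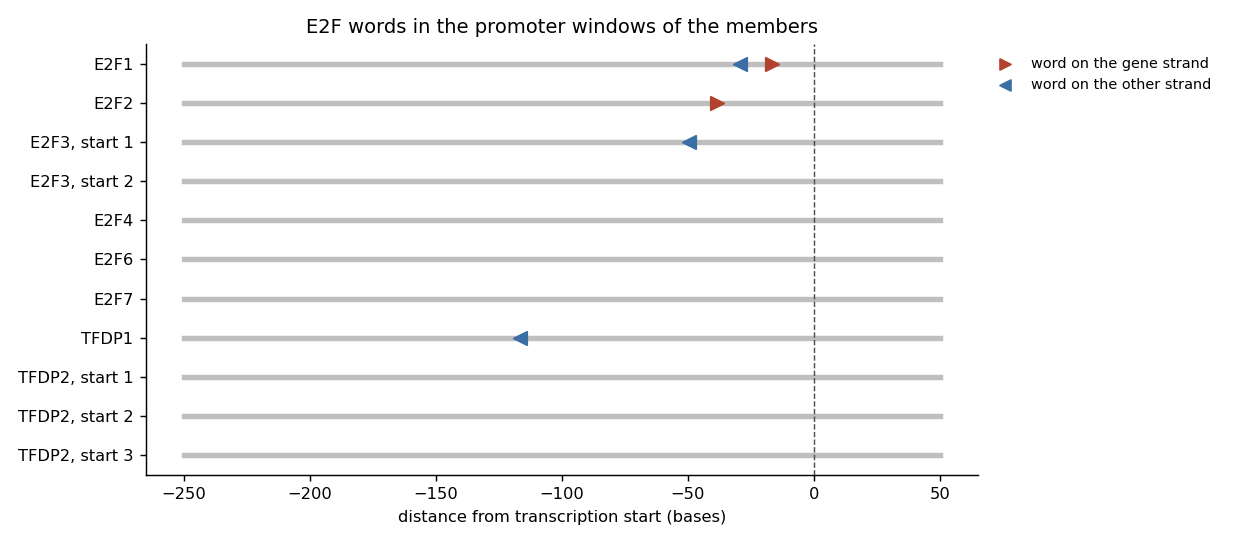
Positions of the E2F words in the 11 RefSeq promoter windows of 8 members, by distance from the transcription start in bases; grey lines span each window, red triangles point right for words on the gene strand and blue triangles point left for words on the other strand. The words of E2F1, E2F2 and E2F3 lie within about 53 bases before the start, that of TFDP1 at 120 bases before it.

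The same words can be set beside the calls over all tested genes with a window. Of 711 genes with a word 228 were called higher (32.1%) and 98 lower (13.8%), against 2223 (23.0%) and 1824 (18.8%) of the 9684 genes with no word. The median log2 difference was 0.08 with a word and 0.02 without, and the median GC content of the windows was 64.7% and 65.3%. These are counts without a test, and a word is not a shown binding site.

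Before the members are taken in turn, the siRNA target and the cells were checked. DYRK2 stood at 1.45, 1.54 and 1.49 FPKM in the siDYRK2 libraries, against 5.84, 6.06 and 5.96 FPKM in the scramble libraries, which left 25.1% ± 0.757 (SD, n = 3) of the scramble mean (exact two-sided permutation p = 0.1, the smallest that 3 against 3 libraries allow). FPKM sums lay between 252318 and 255378 per library, and the number of fragments behind them is unknown. All 5 epithelial markers looked up (EPCAM, CDH1, KRT8, KRT18 and KRT19) exceeded a mean of 0.5 FPKM. Of 11 proximal tubule markers with a row 1 did, and the kidney factor PAX8 stood at 0.0867 FPKM with siDYRK2 and 0.183 FPKM with scramble. NKX2-1, a lung and thyroid factor, stood at 23.4 ± 0.473 FPKM with siDYRK2 and 26.5 ± 0.895 FPKM with scramble (SD, n = 3 each). Of 4 lung-type markers with a row 3 exceeded a mean of 0.5 FPKM. The markers are those of an epithelium, and most defining tubule markers were near 0. That the cells are HK-2 is taken from the labels, and these markers do not show a proximal tubule identity. Fibroblast markers summed to 0.64 to 0.81 FPKM with siDYRK2 and 0.37 to 0.42 FPKM with scramble, and endothelial markers to 0.05 to 0.06 and 0.03 to 0.07 FPKM; 0 of these 10 markers reached a mean of 0.5 FPKM over the 6 libraries. Several of these markers also differed between the groups: epithelial markers summed to 238.0 to 249.9 FPKM with siDYRK2 and 333.0 to 350.8 FPKM with scramble, and lung-type markers to 28.15 to 29.44 FPKM with siDYRK2 and 30.44 to 33.85 FPKM with scramble; their part in the E2F values was not tested. Whether replicates came from separate cultures is not stated in the labels; if they did not, the p-values reflect technical spread alone.

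Among the activators, E2F1 carried the largest amount of transcript. E2F1 (ENSG00000101412; GRCh38 chromosome 20, 33675683 to 33686404, minus strand) drives entry into S phase and can also induce apoptosis genes. It stood at 27.21, 26.68 and 25.29 FPKM in the siDYRK2 libraries, against 16.33, 16.63 and 18.45 FPKM in the scramble libraries. The lowest siDYRK2 library was well above the highest scramble library, and the groups did not overlap. The means were 26.4 ± 0.992 and 17.1 ± 1.15 FPKM (SD, n = 3 each), a log2 difference of 0.61 (95% confidence interval 0.48 to 0.74, limma adjusted p = 2.0e-04), larger than that of 97.7% of the genes tested.

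E2F2 (ENSG00000007968; GRCh38 chromosome 1, 23506430 to 23531220, minus strand), an activator close to E2F1 in function, had the largest log2 difference of the family. Its values were 3.27, 3.36 and 3.33 FPKM with siDYRK2, against 1.57, 1.68 and 1.37 FPKM with scramble. The siDYRK2 libraries were nearly equal to one another and all above the scramble libraries. The log2 difference was 0.91 (95% confidence interval 0.74 to 1.08, limma adjusted p = 1.3e-04), above that of 99.3% of the genes tested. The scramble libraries varied more, with a coefficient of variation of 10.2%, against 1.38% with siDYRK2.

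E2F3 (ENSG00000112242; GRCh38 chromosome 6, 20401906 to 20493715, plus strand), the activator with an alternative start and hence more than one protein form, moved little. It measured 9.02, 8.93 and 8.80 FPKM in siDYRK2 libraries, against 8.49, 8.22 and 8.09 FPKM in scramble libraries. Every siDYRK2 value lay above every scramble value, but the gap was small: the log2 difference was 0.10 (95% confidence interval 0.01 to 0.19) and missed the threshold (limma adjusted p = 0.069). The table gives 1 value per gene, and forms from the separate E2F3 starts cannot be told apart in it.

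The atypical repressors E2F7 and E2F8, which are themselves transcribed with other E2F targets in S phase, both rose. E2F7 (ENSG00000165891; GRCh38 chromosome 12, 77021247 to 77065580, minus strand) stood at 2.65, 2.58 and 2.50 FPKM with siDYRK2, against 1.57, 1.68 and 1.74 FPKM with scramble. Its log2 difference was 0.51 (95% confidence interval 0.36 to 0.66, limma adjusted p = 8.9e-04), and the groups were clearly apart. E2F8 (ENSG00000129173; GRCh38 chromosome 11, 19224063 to 19241620, minus strand) stood at 3.66, 4.15 and 3.62 FPKM with siDYRK2, against 1.98, 2.33 and 2.29 FPKM with scramble. The second siDYRK2 library was the highest and the first scramble library the lowest, with no overlap, and the log2 difference was 0.68 (95% confidence interval 0.49 to 0.86, limma adjusted p = 6.4e-04). Of the 10 members 4, the pair of atypical genes with E2F1 and E2F2, had a log2 difference of at least 0.5 either way, a size reached by 9.98% of the genes tested.

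E2F6 (ENSG00000169016; GRCh38 chromosome 2, 11444375 to 11466177, minus strand), the Polycomb-linked repressor, rose by a small amount. It measured 9.86, 9.49 and 9.57 FPKM with siDYRK2, against 8.74, 8.34 and 8.25 FPKM with scramble. The groups did not overlap, and the log2 difference was 0.18 (95% confidence interval 0.09 to 0.28, limma adjusted p = 0.011), about the size of the 75th percentile of all genes, 0.17. Reads of E2F6 may be shared with its processed copies, of which E2F6P1 was listed at 2.95, 3.59 and 2.67 FPKM with siDYRK2 and at 2.94, 2.64 and 3.82 FPKM with scramble, and E2F6P2 and E2F6P3 at 0.27 to 0.82 FPKM over all libraries. E2F6P1 overlapped between the groups, while E2F6P2 was lower in every siDYRK2 library (0.27, 0.51 and 0.38 FPKM) than in any scramble library (0.55, 0.72 and 0.77 FPKM). The part of read sharing in the E2F6 value was not tested.

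The repressors that work with pocket proteins were not called in either direction. E2F4 (ENSG00000205250; GRCh38 chromosome 16, 67192169 to 67198918, plus strand), the E2F that occupies most target promoters in resting cells, measured 36.04, 33.06 and 35.76 FPKM with siDYRK2, against 35.59, 35.46 and 36.88 FPKM with scramble. These values overlapped, and the log2 difference of −0.04 (95% confidence interval −0.14 to 0.05, limma adjusted p = 0.46) had an upper bound below the lower bounds of E2F1, E2F2, E2F7 and E2F8. E2F5, its relative, measured 3.71, 3.28 and 3.14 FPKM with siDYRK2, against 3.71, 3.62 and 4.29 FPKM with scramble. The first library of each group had the same value, and the log2 difference was −0.17 (95% confidence interval −0.37 to 0.02, limma adjusted p = 0.14). E2F5 overlaps the protein-coding gene C8orf59 on the opposite strand, which was listed at 5.39 to 5.65 FPKM with siDYRK2 and 5.28 to 6.02 FPKM with scramble; whether reads were assigned by strand is not given in the sources used here, so reads of the overlap cannot be told apart.

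The DP partners differed from each other. TFDP1 (ENSG00000198176; GRCh38 chromosome 13, 113584721 to 113641470, plus strand), which encodes DP1, the main dimer partner, had the highest level of all 10 genes, at 53.01, 50.91 and 53.88 FPKM with siDYRK2 against 43.89, 45.69 and 46.15 FPKM with scramble. The groups did not overlap, and the log2 difference was 0.22 (95% confidence interval 0.13 to 0.30, limma adjusted p = 0.0028). TFDP2 (ENSG00000114126; GRCh38 chromosome 3, 141944428 to 142149544, minus strand), which encodes DP2, measured 4.96, 5.28 and 4.66 FPKM with siDYRK2, against 5.36, 5.31 and 5.15 FPKM with scramble. These values overlapped (log2 difference −0.08, 95% confidence interval −0.21 to 0.05, limma adjusted p = 0.29). The ratio of TFDP1 to TFDP2 FPKM was 10.6 ± 0.961 with siDYRK2 and 8.59 ± 0.387 with scramble (SD, n = 3 each).

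**Figure D2:**
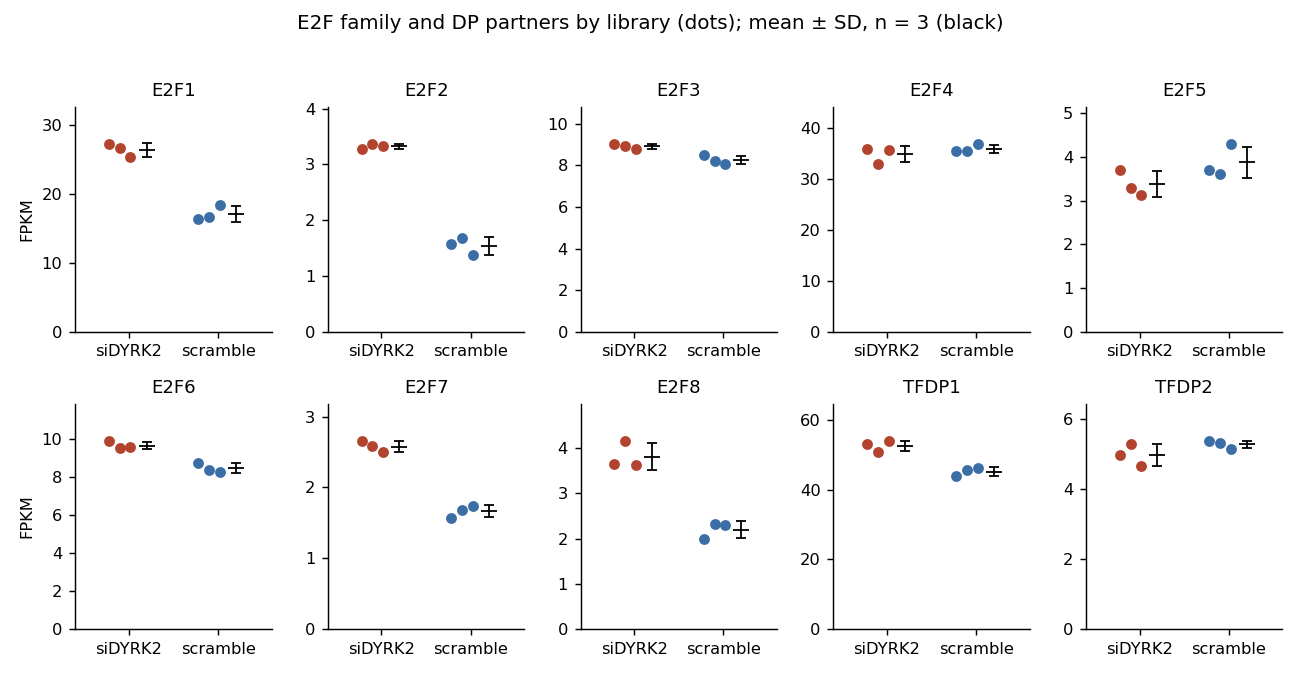
FPKM of the 10 members in each library, with siDYRK2 at the left (red) and scramble at the right (blue); dots are single libraries, black bars the mean ± SD of 3, and each vertical axis starts at 0. The groups are apart for E2F1, E2F2, E2F3, E2F6, E2F7, E2F8 and TFDP1, and overlap for E2F4, E2F5 and TFDP2.

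**Figure D3:**
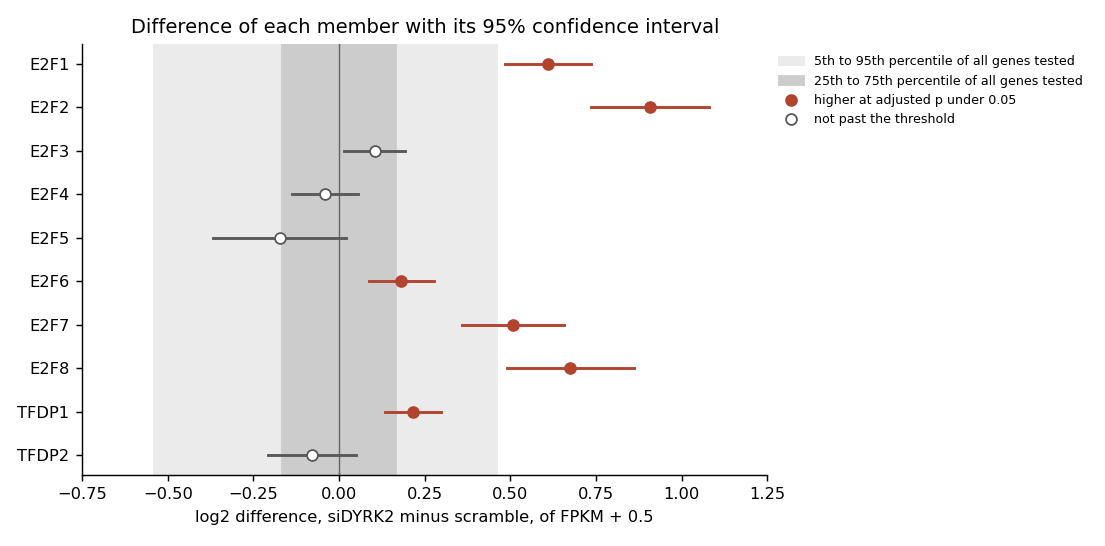
Log2 difference of each member, siDYRK2 minus scramble, with its 95% confidence interval from limma; filled red points passed the adjusted p of 0.05, and the grey bands mark the 5th to 95th percentile (−0.54 to 0.46) and the 25th to 75th percentile (−0.17 to 0.17) of all 15121 genes. E2F1, E2F2, E2F7 and E2F8 lie to the right of the outer band.

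The family's median log2 difference was 0.20, beside 0.01 over all genes tested. In FPKM, a level per transcript length, TFDP1 stood highest in the siDYRK2 libraries, followed by E2F4, E2F1, E2F6, E2F3, TFDP2, E2F8, E2F5, E2F2 and E2F7. In that order E2F8 and E2F5, and E2F5 and E2F2, overlapped in their library values and did not differ beyond their spread. In the scramble libraries the order was TFDP1, E2F4, E2F1, E2F6, E2F3, TFDP2, E2F5, E2F8, E2F7 and E2F2, where E2F6 and E2F3, and E2F7 and E2F2, overlapped. E2F2 thus had the lowest mean of all members with scramble and stood above E2F7 in every library with siDYRK2.

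The make-up of the E2F transcript pool shifted with these changes. The summed FPKM of E2F1 to E2F8 was 93.0 ± 2.12 with siDYRK2 and 79.1 ± 1.96 with scramble (SD, n = 3 each). The activators E2F1 to E2F3 together took 41.4%, 42.6% and 40.7% of it in siDYRK2 libraries 1 to 3, against 33.8%, 34.0% and 34.3% in the scramble libraries. By gene, the mean share of E2F1 was 28.38% with siDYRK2 and 21.65% with scramble, and that of E2F2 3.57% and 1.95%. The mean share of E2F3 was lower with siDYRK2, at 9.59% against 10.46%. E2F4 and E2F5 together took 41.7%, 39.7% and 42.3% with siDYRK2, against 50.4%, 50.1% and 50.6% with scramble. In scramble libraries these repressors outweighed the activators, and in siDYRK2 libraries the shares were about even. The atypical pair took 6.87% ± 0.417 with siDYRK2 and 4.88% ± 0.302 with scramble, and E2F6 10.4% ± 0.0339 and 10.7% ± 0.534 (SD, n = 3 each). Shares add up to a whole, so a higher share of the activators lowers that of E2F4 and E2F5, whose summed FPKM was 39.75, 36.34 and 38.90 with siDYRK2, against 39.30, 39.08 and 41.17 with scramble, values that overlapped.

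**Figure D4:**
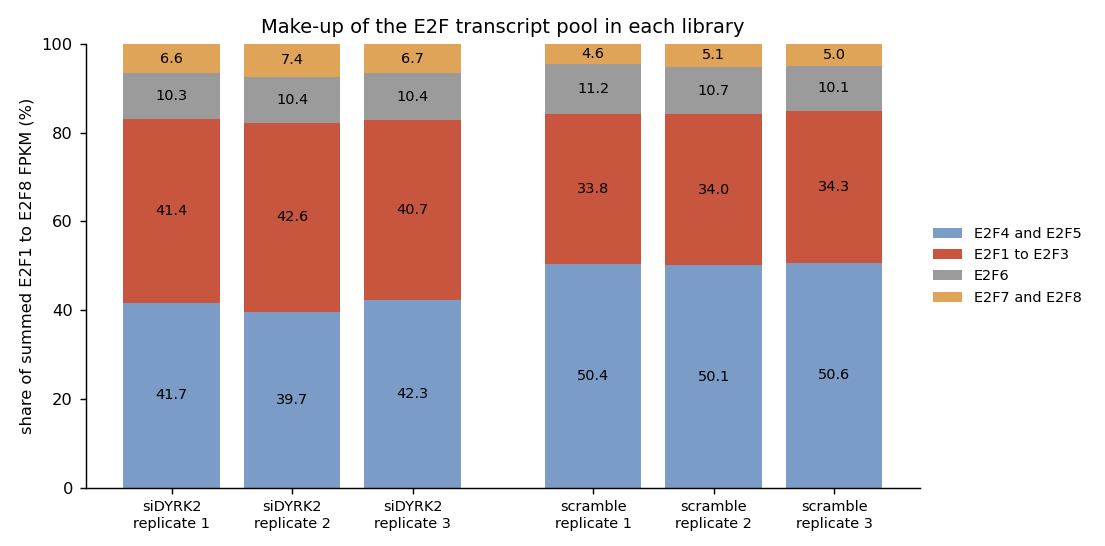
Share of the summed FPKM of E2F1 to E2F8 taken by each class in each library (%), with siDYRK2 replicates at the left and scramble replicates at the right. The activators E2F1 to E2F3 hold 40.7% to 42.6% with siDYRK2 and 33.8% to 34.3% with scramble.

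Genes known as E2F targets at the G1/S boundary were nearly all higher. Of 44 such genes, all tested, 43 rose (97.7%, beside 20.4% of all genes tested) and 1 fell, with a median log2 difference of 0.47 and a range of −0.59 to 1.26. The list was written with earlier results of these data known, so its count is a description. RRM2, a subunit of ribonucleotide reductase, measured 21.3 ± 0.416 FPKM with siDYRK2 and 8.62 ± 0.751 FPKM with scramble, and TK1, the thymidine kinase of S phase, 70.5 ± 4.02 and 35.4 ± 1.90 FPKM (SD, n = 3 each). RRM1, the partner of RRM2, rose with a log2 difference of 0.67 (limma adjusted p = 2.2e-05) and MCM4, a helicase subunit, with one of 0.62 (limma adjusted p = 2.4e-05). The gene that fell was CCNE1, which encodes the G1 cyclin E1 and is a classical E2F1 target, at 2.86, 3.40 and 3.02 FPKM with siDYRK2 against 4.61, 5.41 and 4.66 FPKM with scramble (log2 difference −0.59, limma adjusted p = 0.0015). The other cyclin E gene of the list, CCNE2, picked after its values were seen, was called higher. It measured 3.60 ± 0.105 FPKM with siDYRK2 and 2.15 ± 0.197 FPKM with scramble (SD, n = 3 each; log2 difference 0.63, limma adjusted p = 5.0e-04). Of 37 list genes with a promoter window 23 (62.2%) held an E2F word, beside 6.84% of tested genes with a window. The list was chosen as known E2F targets, so this share is also a description. These are bulk values, and a larger share of cells in S phase and more RNA per cell cannot be told apart.

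The apoptosis genes that E2F1 is known to induce held calls in both directions. Of 14 such genes 13 were tested, TP73 being below the filter, and 3 rose (23.1%, near the 20.4% of all genes tested), 6 fell (46.2%, beside 17.9% of all genes tested) and 4 were not called, with a median log2 difference of −0.09. APAF1, the scaffold of the apoptosome, rose to 3.11 ± 0.269 FPKM with siDYRK2, against 2.23 ± 0.166 FPKM with scramble (SD, n = 3 each; limma adjusted p = 0.0063). HRK, a BH3-only gene, was the least firm of the 3 (log2 difference 0.32, limma adjusted p = 0.045): its call was lost without siDYRK2 replicate 1 (adjusted p = 0.13) or 3 (0.11) and without scramble replicate 1 (0.12) or 2 (0.12). The BH3-only genes BCL2L11 and BBC3 fell to 3.77 ± 0.462 and 2.27 ± 0.236 FPKM with siDYRK2, against 6.46 ± 0.262 and 3.74 ± 0.222 FPKM with scramble (limma adjusted p = 6.8e-04 and 9.9e-04). CDKN2A, which encodes ARF and the CDK inhibitor p16 from 1 locus, fell to 58.0 ± 0.722 FPKM with siDYRK2, against 66.9 ± 1.33 FPKM with scramble (SD, n = 3 each; limma adjusted p = 0.0014), and its products cannot be told apart in a gene-level value.

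The pocket proteins and the MuvB complex bind E2F factors or replace them on cell cycle promoters. Their genes were listed together with those of the MuvB partners, MYBL2 and FOXM1. Of 10 such genes 6 rose, beside 20.4% of all genes tested, and 2 fell, a share near the 17.9% of all genes tested. The other 2, FOXM1 and LIN37, overlapped between the groups and were not called (limma adjusted p = 0.055 and 0.17). RBL1, among the 6 that rose, is also counted among the G1/S targets. Only 3 rose without scramble replicate 1, and also 3 without scramble replicate 2. MYBL2, an E2F target whose product joins MuvB in S phase, measured 78.7, 76.0 and 81.8 FPKM with siDYRK2 against 34.5, 34.0 and 34.3 FPKM with scramble (log2 difference 1.19, limma adjusted p = 1.9e-06). RBL2, which encodes the pocket protein p130 that holds E2F4 in resting cells, fell to 10.7 ± 0.734 FPKM with siDYRK2, against 16.8 ± 0.499 FPKM with scramble (SD, n = 3 each; log2 difference −0.64, limma adjusted p = 1.7e-04). LIN52, a MuvB subunit, fell with a log2 difference of −0.37 (limma adjusted p = 0.0030), while RBBP4, the histone-binding subunit, rose with one of 0.21 (limma adjusted p = 0.0052). RB1 stood at 9.29 ± 0.502 FPKM with siDYRK2 and 8.02 ± 0.201 FPKM with scramble, and RBL1, for p107, at 7.79 ± 0.325 and 6.67 ± 0.178 FPKM (SD, n = 3 each); both were called higher (limma adjusted p = 0.016 and 0.011), and were picked after their values were seen, to complete the pocket proteins. The call of RB1 was lost without scramble replicate 1 (limma adjusted p = 0.0505) and without scramble replicate 2 (0.057), while RBL1 kept its call under all 15 alternatives.

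Among genes that act on the family, several cyclin and kinase genes were higher and others were not called, and of 4 CDK inhibitor genes 2 were lower. Of 17 genes for G1 and S cyclins and kinases, their inhibitors and E2F turnover 16 were tested, CCND2 being below the filter. Of these 8 rose, beside 20.4% of all genes tested, and 3 fell, a share near the 17.9% of all genes tested. The other 5 were not called. SKP2, the ubiquitin ligase subunit that degrades p27, rose 1.84-fold and CCND3, for cyclin D3, 1.82-fold (limma adjusted p = 5.4e-05 and 6.3e-05). CDK2 measured 22.1 ± 0.355 FPKM with siDYRK2 and 16.4 ± 0.162 FPKM with scramble, and CCNA2, for its S phase partner cyclin A2, 20.6 ± 0.514 and 14.4 ± 0.900 FPKM (SD, n = 3 each). CCND1, for cyclin D1, and CDK4, picked after their values were seen, overlapped between the groups and were not called (limma adjusted p = 0.33 and 0.24). CCND1 averaged 120.2 FPKM with siDYRK2 and 124.8 FPKM with scramble, and CDK4 43.1 and 41.4 FPKM. Besides CDKN2A, the inhibitor gene CDKN2B fell to 6.24 ± 1.15 FPKM with siDYRK2, against 10.5 ± 1.17 FPKM with scramble (limma adjusted p = 0.0048). The other inhibitor genes of the list, picked after their values were seen, overlapped between the groups and were not called: CDKN1A, for p21, stood at 38.5 ± 1.49 FPKM with siDYRK2 and 40.6 ± 3.66 FPKM with scramble, and CDKN1B, for p27, at 4.51 ± 0.0907 FPKM with siDYRK2 and 4.68 ± 0.246 FPKM with scramble (SD, n = 3 each; limma adjusted p = 0.43 and 0.52). MDM2, whose product binds p53 and also E2F1, was lower by a small amount (log2 difference −0.17, limma adjusted p = 0.023), a call lost without siDYRK2 replicate 1 (adjusted p = 0.058) or 3 (0.060) and without scramble replicate 1 (0.072) or 2 (0.068).

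The Polycomb partners of E2F6 differed by small amounts apart from RING1. Of 14 such genes 6 rose (42.9%, beside 20.4% of all genes tested), 1 fell (7.14%, beside 17.9% of all genes tested) and 7 were not called. The median log2 difference was 0.09 and the highest 0.24. Only 3 rose without siDYRK2 replicate 1, without siDYRK2 replicate 2 and without scramble replicate 2. RING1, a histone H2A ubiquitin ligase, measured 22.2, 23.6 and 22.3 FPKM with siDYRK2 against 39.8, 41.6 and 46.4 FPKM with scramble (log2 difference −0.89, limma adjusted p = 5.6e-05). Its paralogue RNF2 rose with a log2 difference of 0.21 (limma adjusted p = 0.0099), as did WDR5 (0.21, limma adjusted p = 0.0013), and the deacetylase gene HDAC1 rose with one of 0.24 (limma adjusted p = 0.0096). Germline genes that E2F6 or its Polycomb partners are known to silence in mouse were near the limit of the table: of 10 such genes 6 were below the filter and 3 are not analysed here. STK31, the 1 gene tested, stood at 0.977 ± 0.0208 FPKM with siDYRK2 and 0.963 ± 0.186 FPKM with scramble (limma adjusted p = 0.90).

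**Figure D5:**
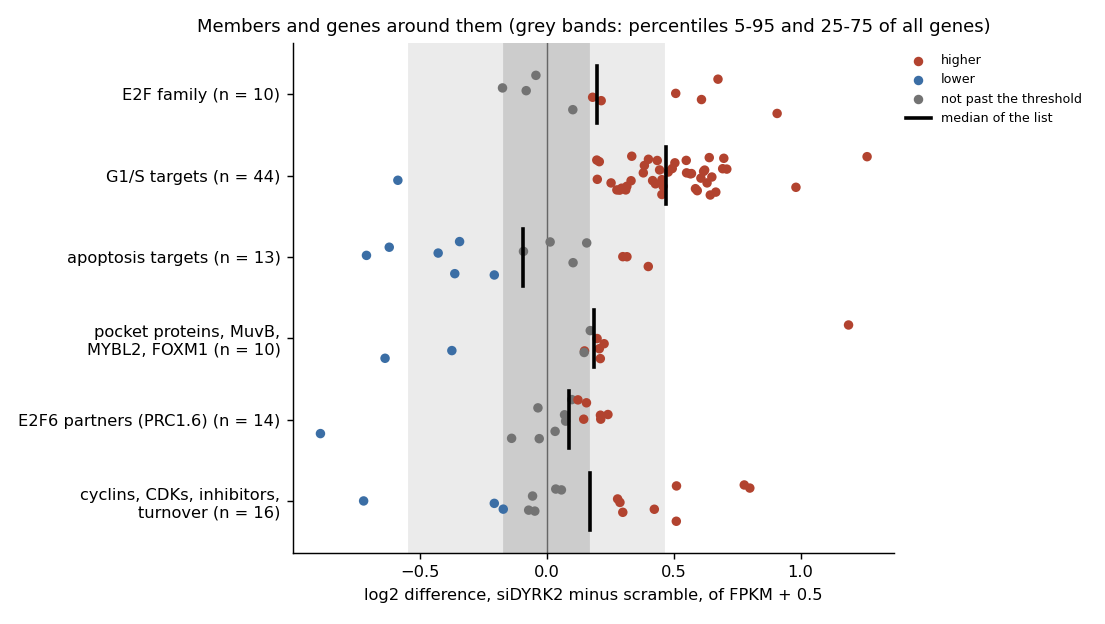
Log2 difference, siDYRK2 minus scramble, of the E2F family and of 5 lists of genes around it; each dot is a gene (red higher, blue lower, grey not past the adjusted p of 0.05), black bars are list medians and grey bands the 5th to 95th and 25th to 75th percentiles of all genes tested. The medians are 0.20 for the family, 0.47 for G1/S targets and −0.09 for apoptosis targets.

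The genes whose levels followed E2F1 most closely over the 6 libraries were PI4KB (Pearson r = 0.998), LIFR (0.998), ABCA7 (0.998), EPAS1 (0.998) and CERK (0.998) among the 10718 genes averaging 2 FPKM or more. EPAS1, which encodes the hypoxia factor HIF-2α, measured 16.6, 17.2 and 15.3 FPKM with siDYRK2 against 7.77, 8.13 and 9.32 FPKM with scramble. Those most opposite were GLCCI1 (−0.999), LINC02035 (−0.999), KIRREL1 (−0.997), ARRB1 (−0.997) and NT5E (−0.997). These r values describe 6 points that fall into the siDYRK2 and scramble groups, so any gene that differs between the groups with little spread comes close to E2F1. None of the 10 is a member of the family or of the lists above.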

How the data were processed

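Total RNA was isolated by Trizol, with a DNase step, and a provider sequenced it (Illumina), per the labels' protocols. HISAT2, StringTie and GRCh38 are named without versions, per the submitters' processing notes. Annotation, strand use and read filters: not given in the sources used here. FPKM values (fragments scaled for transcript length and library size) were deposited by the authors to 2 decimals, in 1 column per library; 0 further sample columns were found, and no pair of columns was identical. Whole reads could not be recovered: 23.5% to 24.9% of low values of short genes came to a whole number of reads within 0.1 at the best step size. Chance gives 20% at a fixed step size, and its share at the best of many, which is higher, was not computed. Depth is unknown, so intervals from counting are left out.

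The filter kept genes averaging 0.5 FPKM or more. limma 3.58.1, run in R 4.3.3, was applied to log2(FPKM + 0.5) (mean-variance trend, no block, Benjamini-Hochberg adjustment at 0.05), after a check on simulated data. Fold values are ratios of mean FPKM, and intervals cover 95%. Coordinates are from GENCODE 29 on GRCh38, and promoter windows from RefSeq, GRCh38.p14. Named genes are the 10 members, DYRK2, up to 4 called genes per list with the smallest adjusted p, every gene of 5 or fewer calls in a direction, and the 5 genes most like and most unlike E2F1; some genes under this rule and among the markers are not reported here. The members and lists were chosen with earlier results of these data known. There were 15 alternatives: pseudocounts, filters, rescalings, quantile normalization, no trend, a replicate block and each library left out. Python 3.11.15, pandas 2.3.3, numpy 2.4.6 and scipy 1.17.1 were used for the summaries.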

Additional observations from a re-analysis of the deposited data

How the results depend on the processing

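All 10 members kept their direction and their side of the threshold under all 15 alternatives. The highest adjusted p of the 6 that rose was 0.044 (E2F6), and E2F3 stayed between 0.053 and 0.17. E2F2 ranged from 0.77 to 1.06 on the log2 scale and E2F1 from 0.58 to 0.66. The labels name nothing but the number as shared by libraries of the same replicate number. Their deviations from the group means correlated at −0.077, 0.024 and −0.088. Replicates 1 and 3 of siDYRK2 each correlated lowest with their own number. Deviations from means of 3 are tied to one another, so these values cannot show whether a culture or batch was shared. With the replicate block the family count stayed at 6 higher, the block changed no call of a member, and over all genes 2495 were called higher and 2321 lower. Among the 30 other genes followed through the alternatives it ended the call of HRK alone (limma adjusted p = 0.078). Leaving out each library in turn moved 2 counts by over 1.5 times: pocket protein and MuvB genes called higher ranged from 3 to 5, and Polycomb partners called higher from 3 to 5, where fewer samples were tested. Of 30 other tested genes followed through the alternatives, 25 kept their direction and their side of the threshold under all that gave a value. CCND1, CDK4, CCNE2, FOXM1 and LIN37 were not among them. HRK, MDM2 and RB1 lost their calls in 12 cases together. The uncalled CDKN1A and STK31 changed sign when single libraries were left out: CDKN1A ranged between −0.11 and 0.0017, the highest without scramble replicate 3, and STK31 between −0.066 and 0.12, the lowest without scramble replicate 1. HRK was also lost without a filter on low values (adjusted p = 0.12). Rescaling moved the median log2 difference of all genes to at most 0.02. Depth is unknown, so no limit from counting is set on the lowest members, E2F2 and E2F7.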
